A study of Sus scrofa with 20 samples.

Results

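MYH11, CNN1 and MYLK encode parts of the contractile machinery of smooth muscle and its regulators, and their transcripts were followed across 20 libraries of pig backfat. They are 3 of the 23483 loci in the deposited gene tables, and each was found through its Ensembl identifier. MYH11 is locus XLOC_036482 (ENSSSCG00000000146), CNN1 is XLOC_017603 (ENSSSCG00000013614) and MYLK is XLOC_008906 (ENSSSCG00000011867). Each symbol had 1 locus, so no choice between loci was needed. The names rest on a table that pairs identifiers with symbols, and no sequence was used to check them. The MYH11 identifier directly follows that of MYH9 (ENSSSCG00000000145), another myosin heavy chain gene, so each MYH11 value rests on that pairing being right.

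In smooth muscle, calcium entering the cell binds calmodulin, and calcium-calmodulin switches on the kinase made from MYLK. That kinase phosphorylates the regulatory light chain of the myosin whose heavy chain is made from MYH11, and the phosphorylated myosin pulls on actin. CNN1 makes calponin, a protein that binds actin and restrains the myosin ATPase. In fat, mature smooth muscle cells sit chiefly in the walls of arteries and veins, and MYH11 and CNN1 are widely used markers of the contractile state of those cells.

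The animals were Italian Large White pigs of 150 to 160 kg, 10 females aged 235 to 250 days and 10 castrated males aged 233 to 249 days, with 1 library per animal. All shared one environment and one diet. Backfat was frozen in liquid nitrogen at a commercial slaughterhouse, and oligo-dT selected RNA was sequenced as 100 bp paired reads. Backfat is whole tissue, so a lower level of a transcript can reflect fewer cells of a type or less RNA per cell, and these cannot be told apart. For the same reason, which cells the RNA of each member came from cannot be told. Libraries are called by labelled sex and a number that carries no meaning across the sexes.

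Library totals lay between 25754778 and 51248122 counts (median 36922247), and the lowest count of any member in any library was 395. No pair of the 190 pairs of libraries was identical. A fit that left out female 10 and castrated male 10 called 18 loci between the sexes. At these, the library labelled female 10 lay nearer to the mean of castrated males at 16, and the library labelled castrated male 10 lay nearer to the mean of females at 17. The sex results of the members and of most gene lists are therefore also given without that pair. Those of the gene families and of the skeletal muscle and epidermis markers are not. Fat cell genes of the labelled tissue were present, with SCD, a fatty acid desaturase, at 2545 ± 1245 FPKM, LIPE, the hormone-sensitive lipase, at 479.5 ± 124 and PPARG, the master factor of fat cells, at 181 ± 45.0 (SD, n = 20). The labels name no batch, but the title numbers of female 10 and castrated male 10 lie apart from the unbroken run of the others. Both also had the lowest totals, at 25754778 and 28009303 counts. Whether this relates to their values at the loci called between the sexes was not tested.

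Per length of the assembled transcripts, which may be partial, the mean level was highest for the MYH11 locus and lowest for the MYLK locus. By FPKM (fragments scaled to transcript length and to mapped fragments, as deposited), MYH11 averaged 22.2 ± 9.57, CNN1 19.5 ± 12.5 and MYLK 13.8 ± 3.34 (SD, n = 20). MYH11 stood above MYLK in 18 of the 20 libraries and above CNN1 in 15. CNN1 stood above MYLK in 11 of 20, so these neighbours in the order did not separate library by library. Whether the nearby locus XLOC_008908, at 31.1 ± 8.73 FPKM (SD, n = 20), belongs to MYLK cannot be told from the tables, and the MYLK level would then be incomplete.

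The members differed in how widely they varied between animals. CNN1 spanned an 8.15-fold range of TMM-scaled CPM (counts scaled to library size), MYH11 a 5.50-fold range and MYLK a 2.16-fold range. With sex means removed, the SD of log2 CPM was 0.79 for CNN1, 0.62 for MYH11 and 0.35 for MYLK, against a median of 0.26 over 8769 loci with a mean of at least 10 CPM. Of those loci, 2.96% had a larger SD than CNN1, 6.43% a larger one than MYH11 and 29.3% a larger one than MYLK.

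Females and castrated males were compared for the contractile transcripts. No intact males were sampled, so sex and castration cannot be told apart, and a sex difference here means one between these groups. MYH11, the smooth muscle myosin heavy chain, had 34.0 CPM in the lowest, 67.0 CPM at the median and 130.3 CPM in the highest female, against 23.7, 52.2 and 82.6 CPM in castrated males. The groups overlapped, with 2 females above the highest castrated male and 4 castrated males below the lowest female. Those 4 castrated males, numbers 4, 6, 8 and 9, had 23.7 to 28.8 CPM, and the next castrated male had 52.1 CPM. The MYH11 mean was 68.3 ± 25.8 CPM in females, against 48.5 ± 22.1 CPM in castrated males (SD, n = 10 each). The log2 difference, females minus castrated males, was 0.49 (SE 0.250, 95% interval -0.025 to 1.01, adjusted p = 1.0 by edgeR's quasi-likelihood test with Benjamini-Hochberg adjustment).

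CNN1, the actin-binding calponin, had 18.3 CPM in the lowest, 33.0 CPM at the median and 96.1 CPM in the highest female, against 11.8, 23.4 and 76.5 CPM in castrated males. Female 2 (96.1 CPM), female 7 (79.5 CPM) and castrated male 5 (76.5 CPM) stood above the other 17 libraries, of which the highest was female 9 at 49.3 CPM. The groups overlapped, with 2 females above the highest castrated male and 3 castrated males below the lowest female. The CNN1 mean was 43.3 ± 25.9 CPM in females, against 28.4 ± 18.9 CPM in castrated males (SD, n = 10 each). The log2 difference was 0.61 (SE 0.336, 95% interval -0.089 to 1.30, adjusted p = 1.0 by edgeR).

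MYLK, the kinase, had 15.5 CPM in the lowest, 18.6 CPM at the median and 26.6 CPM in the highest female, against 12.3, 16.7 and 25.6 CPM in castrated males. Female 3 alone exceeded the highest castrated male, and 5 castrated males, numbers 4, 5, 6, 8 and 9, lay below the lowest female. The MYLK mean was 19.6 ± 3.97 CPM in females, against 17.9 ± 5.05 CPM in castrated males (SD, n = 10 each). The log2 difference was 0.13 (SE 0.151, 95% interval -0.18 to 0.44, adjusted p = 1.0 by edgeR).

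**Figure D1:**
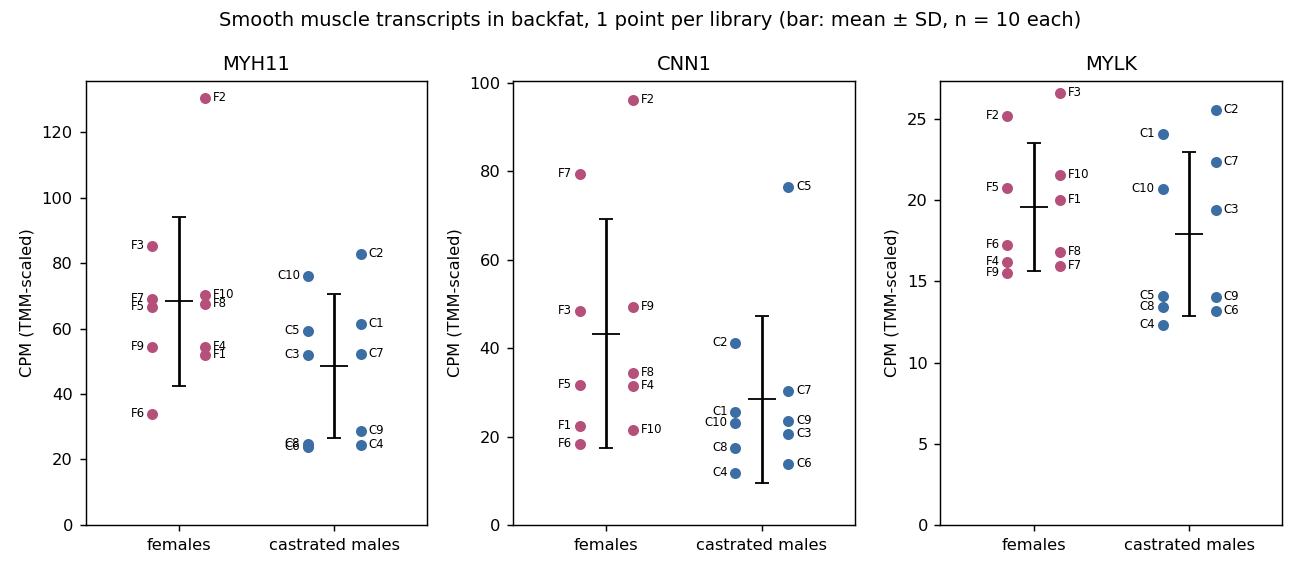
TMM-scaled CPM of MYH11, CNN1 and MYLK, with 1 point per library (F, female; C, castrated male; the number is the library) and bars for mean ± SD of 10 libraries. The groups overlap for each gene, female 2 leads MYH11 and CNN1, and castrated male 5 sits at 76.5 CPM for CNN1 and 14.1 CPM for MYLK.

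None of the 3 members passed an adjusted p of 0.05 between the sexes, and 0% of the 21587 loci tested did. At an unadjusted p under 0.05, 0 of 3 members and 4.33% of all loci were counted, with 2.28% of all loci higher in females. Without female 10 and castrated male 10, 0.0834% of 21583 loci passed, no member among them. The MYH11 difference was then 0.59 (unadjusted p = 0.0393, adjusted p = 1.0 by edgeR), with 1 of 3 members and 4.86% of all loci under the unadjusted threshold and 2.91% of all loci under it and higher in females. The CNN1 difference was then 0.66 and the MYLK difference 0.14.

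Single libraries moved the CNN1 difference. It was 0.91 without castrated male 5 (unadjusted p = 0.00633, adjusted p = 0.958 by edgeR) and 0.40 without female 2 (adjusted p = 0.999 by edgeR). With age in the model the MYH11 difference was 0.62 (unadjusted p = 0.0204, adjusted p = 1.0 by edgeR), that of CNN1 0.62 and that of MYLK 0.27. In that model 1 of 3 members, and 2.49% of all loci, were higher in females at an unadjusted p under 0.05.

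Age at slaughter was tested with sex in the model, as the log2 slope per 10 days. The pigs share a weight range, so age cannot be told apart from growth rate. MYLK had the slope of smallest p, -0.35 per 10 days (SE 0.136, 95% interval -0.64 to -0.070, unadjusted p = 0.0169, adjusted p = 0.859 by edgeR), and ranked 415 of the 21587 loci by p. MYH11 had a slope of -0.41 (SE 0.225, 95% interval -0.88 to 0.055, adjusted p = 0.867 by edgeR). CNN1 had a slope of -0.10 (SE 0.30, 95% interval -0.73 to 0.52, adjusted p = 0.970 by edgeR).

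For age too, 0 of 3 members and 0% of all loci passed the adjusted threshold. At an unadjusted p under 0.05, 1 of 3 members and 5.51% of all loci were counted, and 3.73% of all loci had a slope below 0 as that member did. Without female 10 and castrated male 10 the MYLK slope was -0.41 (unadjusted p = 0.00857, adjusted p = 0.852 by edgeR), again 1 of 3 members, against 5.24% of all loci and 3.14% with a slope below 0. The MYLK slope stayed between -0.41 and -0.30 in the 20 fits that each left out 1 library, with an unadjusted p under 0.05 in 19 of them. It was -0.26 (unadjusted p = 0.0632, adjusted p = 0.756 by edgeR) with sex left out of the model.

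The CNN1 slope moved with single libraries. Female 2, the youngest female at 235 days, was the highest library for CNN1, and castrated male 5, the oldest castrated male at 249 days, ranked 3 of 20. Without female 2 the slope turned to 0.23 (adjusted p = 1.0 by edgeR). Without castrated male 5 it was -0.74 (unadjusted p = 0.0132, adjusted p = 0.995 by edgeR). It was -0.27 without female 7, -0.0071 without castrated male 2, -0.0088 without female 6 and -0.0083 without female 10. On log2(FPKM + 0.1) it was -0.32 (adjusted p = 0.896 by limma). The MYH11 slope was -0.23 without female 2 and -0.60 without castrated male 5.

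**Figure D2:**
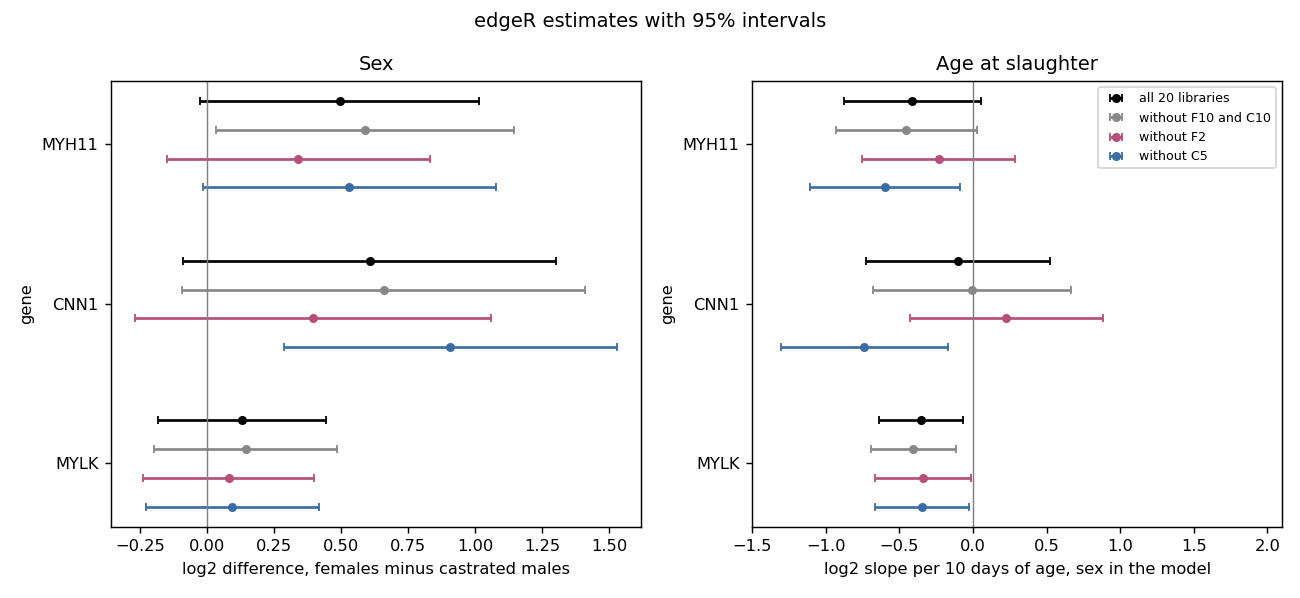
edgeR log2 estimates of the members with 95% intervals, females minus castrated males at left and the slope per 10 days of age at right, over all 20 libraries and with the named libraries left out. The CNN1 slope lies at -0.10 with all libraries, at 0.23 without female 2 and at -0.74 without castrated male 5.

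MYH11 varied together with each of the other members across animals, whereas a relation between CNN1 and MYLK was not detected. On log2 CPM over 20 libraries, MYH11 and MYLK had a Pearson r of 0.787 and a Spearman rho of 0.752 (two-sided permutation p = 5e-05 and p = 0.00021, adjusted over the 3 pairs to 0.00015 and 0.00063). MYH11 and CNN1 had an r of 0.745 and a rho of 0.716 (permutation p = 0.0002 and p = 0.00058, adjusted 0.0003 and 0.00087). CNN1 and MYLK had an r of 0.338 and a rho of 0.388 (permutation p = 0.146 and p = 0.0929, adjusted to the same values). The difference between these correlations was not tested. The members were chosen with earlier results of these data known, which the permutation p does not take into account.

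Both relations with MYH11 were recomputed without extreme libraries. Without the libraries farthest from the MYH11 median, castrated males 4 and 6, r was 0.704 for MYH11 and MYLK and 0.640 for MYH11 and CNN1. Without female 2, the highest library for MYH11 and CNN1, r was 0.762 for MYH11 and MYLK and 0.675 for MYH11 and CNN1, with adjusted permutation p = 0.00042 and p = 0.00249. Without female 2 and female 7, the libraries farthest from the CNN1 median, r was 0.326 for CNN1 and MYLK. Within the females r was 0.736 for MYH11 and CNN1 and 0.655 for MYH11 and MYLK, with adjusted permutation p = 0.0385 and p = 0.0505. Within the castrated males r was 0.688 for MYH11 and CNN1 and 0.849 for MYH11 and MYLK, with adjusted permutation p = 0.0333 and p = 0.0184. Without female 10 and castrated male 10, r was 0.825 for MYH11 and CNN1 and 0.778 for MYH11 and MYLK.

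**Figure D3:**
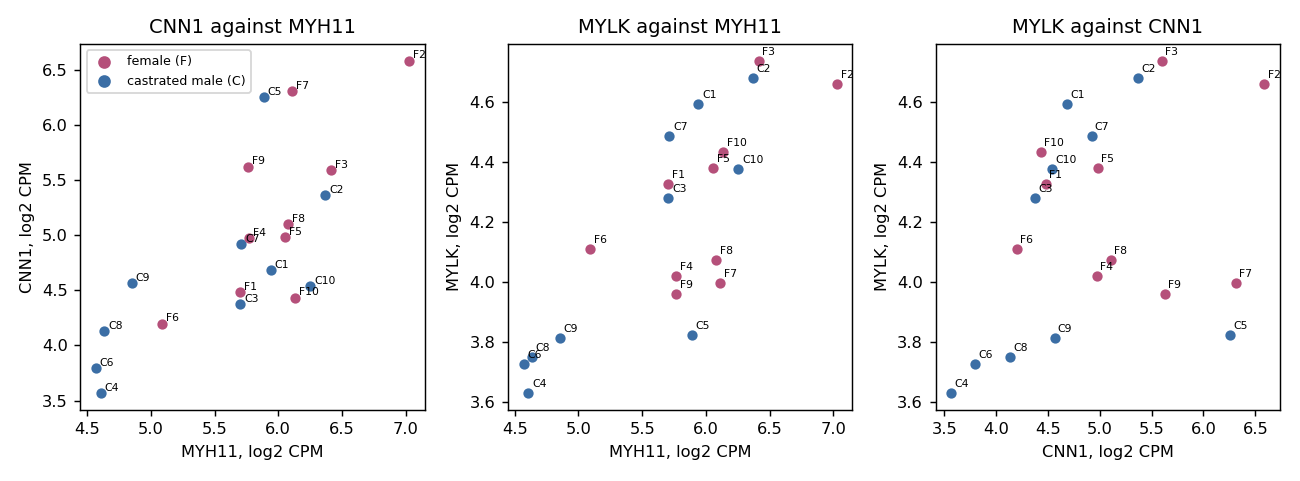
Each pair of members on log2 CPM, with 1 point per library (females F, castrated males C). Castrated males 4, 6 and 8 lie at the low end of all 3 panels, and female 7 and castrated male 5 are high for CNN1 while lying low for MYLK.

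Library by library, the proportions shifted. Castrated males 4, 6 and 8 held the lowest 3 places for MYH11, for CNN1 and for MYLK. Castrated male 5 was in place 3 for CNN1, in place 10 for MYH11 and in place 16 for MYLK. Its ratio of CNN1 to MYLK by FPKM was 3.94, the highest, against a median of 1.06 over all libraries and a lowest value of 0.712 in castrated male 4.

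The loci most like each member were ranked by Pearson r of log2 CPM over 20 libraries, among 15769 loci with a mean of at least 1 CPM. These ranks describe the libraries, since all loci share the same libraries and depths. The median r over all loci was -0.017 with MYH11, -0.014 with CNN1 and -0.0038 with MYLK.

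Among loci with a symbol, MYH11 was most like THSD4, a protein of fibrillin microfibrils (r = 0.848), ACTG2, the enteric smooth muscle actin (r = 0.820), and PROSER2 (r = 0.817). KCNMB1, the smooth muscle subunit of a calcium-activated potassium channel (r = 0.809), ACTA2, the vascular smooth muscle actin (r = 0.806), and MYLK completed its 6 nearest. THSD4 and PROSER2 were low transcripts, at 0.480 ± 0.171 and 0.544 ± 0.240 FPKM (SD, n = 20 each).

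Among loci with a symbol, CNN1 was most like KCNMB1 (r = 0.956), ACTG2 (r = 0.880), DES, the muscle intermediate filament desmin (r = 0.868), ACTA2 (r = 0.831), TPM2, a tropomyosin (r = 0.822), and STAC2 (r = 0.800). ACTG2, ACTA2 and KCNMB1 were the genes shared by the MYH11 and CNN1 lists. KCNMB1 was a low transcript, at 0.944 ± 0.628 FPKM (SD, n = 20).

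Among loci with a symbol, MYLK was most like CAP2, an actin-binding protein (r = 0.800), ANTXR1, a receptor that binds matrix (r = 0.791), MYH11 (r = 0.787), ANKRD42 (r = 0.766), KCTD20 (r = 0.760) and PCSK6, a proprotein convertase (r = 0.754). CAP2 was a low transcript, at 0.645 ± 0.212 FPKM (SD, n = 20). CNN1 held place 10 among the loci ranked by likeness to MYH11, and place 2269 among those ranked by likeness to MYLK.

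The contractile and cytoskeletal partners, actins, tropomyosins, actin-binding proteins and desmin among them, mostly had a positive r with the members. Of 20 listed genes 12 had a locus, and all 12 had a positive r with MYH11 (median 0.527), 11 with CNN1 (median 0.647) and 12 with MYLK (median 0.277). Of all loci, 5% had an r above 0.395 with MYH11, 0.398 with CNN1 and 0.489 with MYLK, and no partner exceeded the last of these. TAGLN, the calponin-related transgelin, averaged 343 ± 106 FPKM and had an r of 0.672 with CNN1 and 0.315 with MYLK. TPM1, a tropomyosin, averaged 329 ± 78.5 FPKM and had an r of 0.556 with MYH11. CALD1, the actin-binding caldesmon, averaged 245 ± 33.0 FPKM and was the exception, with an r of -0.338 with CNN1 and 0.017 with MYH11. ACTA2 averaged 133 ± 58.6 FPKM (SD, n = 20 each).

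Between the sexes 10 of these 12 partners stood above 0 and 2 below, with a median log2 difference of 0.14 against 0.0036 over all loci, and 0 of 12 passed against 0% of all loci. Without female 10 and castrated male 10 the split was again 10 and 2, with a median of 0.18. ACTG2 stood at 0.69 (SE 0.472), KCNMB1 at 0.63 (SE 0.370) and DES at 0.47 (SE 0.446). With age 9 of 12 had slopes below 0, with a median of -0.13 against 0.00083 over all loci, and 0 passed. ACTG2, DES and SYNPO2, an actin-bundling protein, had slopes above 0, at 0.24 (SE 0.399), 0.30 (SE 0.374) and 0.17 (SE 0.128) per 10 days. Age slopes below 0 numbered 8 of 12 without female 10 and castrated male 10, with a median of -0.055. ACTG2 and DES were highest in castrated male 5.

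**Figure D4:**
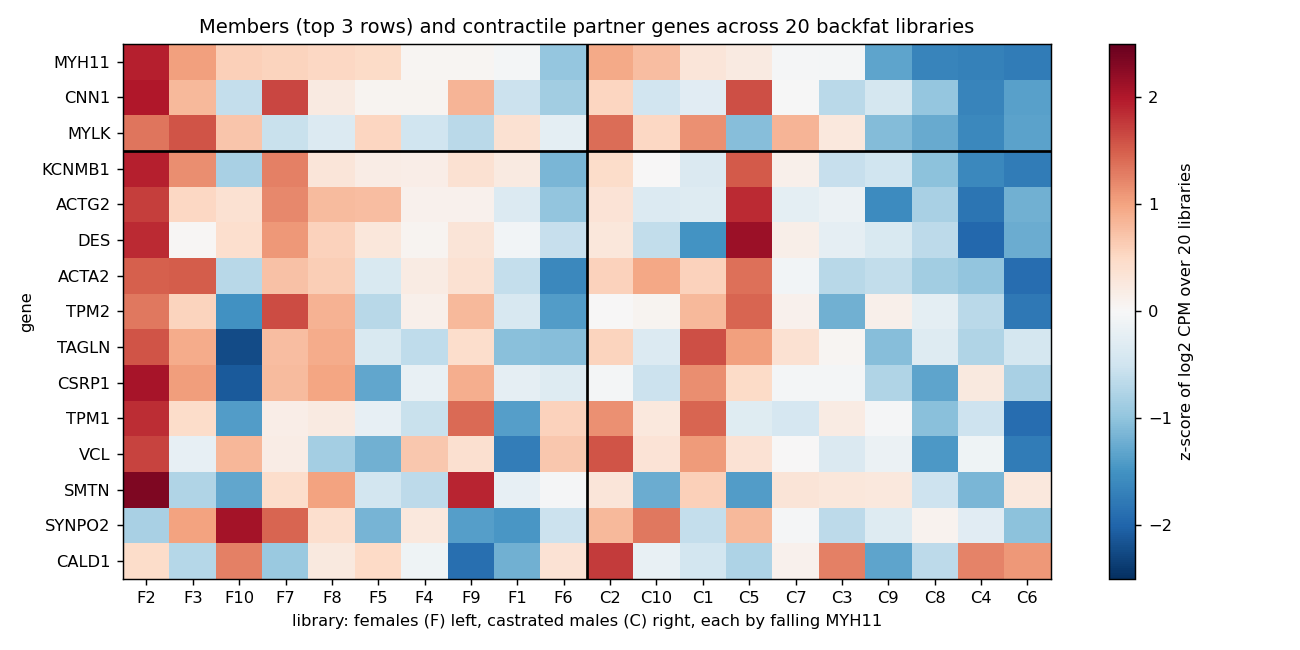
Heat map of z-scores of log2 CPM over 20 libraries, members in the top 3 rows and 12 contractile partner genes beneath by falling r with CNN1, with females (F) at left and castrated males (C) at right in order of falling MYH11. Female 2 is high for all 3 members, castrated male 5 is high for CNN1, KCNMB1, ACTG2 and DES, and CALD1 in the bottom row does not follow CNN1 (r = -0.338).

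The light chain switch comprises, among others, calmodulins and myosin phosphatase subunits. Of 12 listed 9 had a locus, with a median r of 0.240 with MYLK and 6 of 9 above 0. CALM2 averaged 368 ± 79.8 FPKM, RHOA, a small GTPase, 244 ± 31.9 and PPP1CB, the catalytic subunit of myosin phosphatase, 138 ± 19.5 (SD, n = 20 each). PPP1R12B, a targeting subunit of that phosphatase singled out after its values were seen, had an r of 0.687 with CNN1, 0.614 with MYH11 and 0.50 with MYLK. Its age slope was -0.38 (SE 0.109, unadjusted p = 0.0020, adjusted p = 0.848 by edgeR). For sex 3 of 9 stood above 0 and for age 3 of 9, and 0 passed in either test. Both counts were again 3 of 9 without female 10 and castrated male 10.

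Of the listed transcription factors of smooth muscle genes 4 of 9 had a locus. SRF, which binds the control elements of contractile genes, averaged 9.61 ± 2.29 FPKM with an r of -0.147 with MYH11 and 0.028 with CNN1. MRTFA, an actin-regulated partner of SRF, averaged 11.9 ± 2.22 FPKM with an r of 0.331 with MYLK and an age slope of -0.28 (SE 0.102, unadjusted p = 0.011, adjusted p = 0.859 by edgeR). KLF4, a factor that represses contractile genes in cultured smooth muscle, averaged 161 ± 85.2 FPKM with an r of -0.227 with MYH11, and MEF2C 12.2 ± 2.56 FPKM with an r of 0.225 with MYH11 (SD, n = 20 each). For sex 2 of 4 stood above 0 (median 0.0019) and for age 0 of 4, and 0 passed. Without female 10 and castrated male 10, 3 of 4 stood above 0 for sex (median 0.057) and 1 of 4 for age.

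Pericytes are the other mural cells of vessels. Of 8 listed 6 had a locus, with a median r of -0.099 with MYH11, -0.026 with CNN1 and -0.090 with MYLK. MCAM, an adhesion molecule of vessel wall cells, averaged 48.1 ± 11.2 FPKM with an r of 0.393 with MYH11. PDGFRB, the receptor that recruits pericytes, averaged 27.5 ± 5.56 FPKM with an r of -0.321 with MYH11 (SD, n = 20 each). KCNJ8 averaged 22.2 ± 4.89 FPKM. For sex 2 of 6 stood above 0 (median -0.074) and for age 1 of 6, and 0 passed. Without female 10 and castrated male 10 the balance turned, with 4 of 6 above 0 for sex (median 0.028) and 3 of 6 for age.

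Summed over the 6 loci, pericyte markers had 292 to 495 CPM in females, against 318 to 461 CPM in castrated males. Endothelial markers, of which 4 of 8 had a locus, summed to 1273 to 2092 CPM in females, against 1263 to 2420 CPM in castrated males. Their median r was 0.172 with MYH11, 0.084 with CNN1 and 0.210 with MYLK. For sex 1 of 4 stood above 0 (median -0.058) and for age 1 of 4, and 0 passed. With that pair of libraries left out, 2 of 4 stood above 0 for sex (median -0.013). PECAM1, the endothelial junction protein, stood at -0.083 (SE 0.118) between the sexes, and KDR, a receptor for vascular endothelial growth factor, at -0.033 (SE 0.239). Their part in the MYH11 and CNN1 values was not tested.

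Fibroblast and matrix markers had 7 of 8 tested genes above 0 between the sexes, with a median of 0.15 against 0.0036 over all loci. Their summed level was 15571 to 24498 CPM in females, against 9059 to 22225 CPM in castrated males. COL3A1 and COL1A2, fibrillar collagens, stood at 0.21 (SE 0.166) and 0.33 (SE 0.177), and 0 of 8 passed. With female 10 and castrated male 10 left out, 7 of 8 were again above 0 (median 0.14). For age 1 of 8 stood above 0. Their median r was 0.095 with MYH11, -0.106 with CNN1 and 0.265 with MYLK, and their part in the sex values was not tested.

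Of 7 listed nerve and Schwann cell markers 4 had a locus. NCAM1, a neural cell adhesion molecule, averaged 1.64 ± 0.47 FPKM (SD, n = 20) and was highest by CPM in female 2, the library that leads MYH11 and CNN1, with an r of 0.333 with CNN1. For age 0 of 4 stood above 0, and NCAM1 had a slope of -0.36 (SE 0.147, unadjusted p = 0.0239, adjusted p = 0.859 by edgeR). For sex 3 of 4 stood above 0, with or without female 10 and castrated male 10, and 0 passed in either test. The part of nerve in the female 2 values was not tested.

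Skeletal muscle markers were low. Of 14 listed markers 3 had a locus, and they summed to 0.770 to 8.84 CPM in females, against 0.926 to 9.92 CPM in castrated males. ACTA1, the skeletal muscle actin, had 0 counts in 3 libraries and TNNC2, a fast troponin, in 16. By FPKM TNNC2 ran from 0.0695 to 0.516 over the 20 libraries, so its counts and FPKM do not match. NEB, the giant filament protein nebulin, was the one tested, with an r of -0.047 with MYH11. The only epidermis marker with a locus, KRT10, averaged 3.10 ± 0.502 FPKM, and its r was 0.082 with MYH11 (SD, n = 20).

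Fat cell markers mostly had a negative r with the members. All 10 had a locus, and 9 of 10 had a negative r with each of MYH11 (median -0.262), CNN1 (median -0.219) and MYLK (median -0.163). LIPE had an r of -0.424 with MYH11 and -0.390 with CNN1. Summed, they had 5362 to 35361 CPM in females, against 1982 to 32909 CPM in castrated males, and their part in the members' values was not tested. For sex 6 of 10 stood above 0 (median 0.037) and for age 9 of 10, and 0 passed. With female 10 and castrated male 10 left out, the sex balance turned, with 4 of 10 above 0 (median -0.047).

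Macrophage markers, of which 5 of 7 had a locus, had a negative r with MYH11 in all 5 (median -0.235) and a positive one with MYLK in all 5 (median 0.121). They summed to 138 to 406 CPM in females, against 187 to 920.4 CPM in castrated males, highest in castrated male 1. For sex and for age 0 of 5 stood above 0, and 0 passed. At an unadjusted p under 0.05, 3 of 5 were counted between the sexes, against 4.33% of all loci in either direction. Lower in females at that threshold were 442 of the 21587 loci. Each of the 5 was highest in castrated male 1, and no count without that library is given here. With female 10 and castrated male 10 left out, the counts were again 0 of 5 above 0 and 3 of 5. Of all loci 4.86% were then counted in either direction, and 419 of 21583 were lower in females.

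Relatives of the members were measured beside them. MYH9, the non-muscle myosin heavy chain IIA, averaged 116 ± 21.1 FPKM against 22.2 ± 9.57 FPKM for MYH11 (SD, n = 20 each), with an r of 0.229 with MYH11. The treatment of reads that match both is not given in the sources used here, so part of either value is uncertain. MYH14, another non-muscle heavy chain, averaged 22.5 ± 5.31 FPKM with an r of -0.316 with MYH11. The striated muscle heavy chains MYH3, MYH6 and MYH8 averaged 1.14, 0.109 and 0.102 FPKM, and MYH8 had 0 counts in 5 libraries.

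CNN3, the acidic calponin found in many cell types, averaged 85.8 ± 16 FPKM, above CNN1, with an r of 0.388 with CNN1 and 0.519 with MYLK. It stood at -0.062 (SE 0.118) between the sexes and at -0.26 per 10 days of age (SE 0.109, unadjusted p = 0.0278, adjusted p = 0.865 by edgeR). MYLK2, the skeletal muscle kinase, averaged 0.632 ± 0.181 FPKM with an r of -0.159 with MYLK (SD, n = 20 each).

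The isoform table split the MYH11 locus into 3 assembled transcripts and the CNN1 locus into 2, and kept MYLK as 1. Isoforms were tied to a locus where consecutive isoforms summed to the locus FPKM in all 20 libraries within 0.2%. The third MYH11 isoform, with no nearest reference transcript, held 76.8 ± 9.60% of the locus FPKM and more than 50% in all 20 libraries. The first, nearest to ENSSSCT00000000153, held 19.9 ± 6.93%. The second held 3.34 ± 5.66%, was listed at 0 in 6 libraries and reached 19.2% in female 10 (SD, n = 20 each).

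Both sexes had the same main isoform. The third MYH11 isoform took 76.2 ± 10.7% in females and 77.4 ± 8.92% in castrated males, and the first CNN1 isoform, nearest to ENSSSCT00000014869, took 90.3 ± 6.62% in females and 88.3 ± 8.29% in castrated males (SD, n = 10 each). The shares differed between the sexes by less than the SD within each sex. The lowest shares of the third MYH11 isoform were 59.5% in female 10 and 60.5% in castrated male 10. Isoform FPKM are estimates, the depth behind each split is unknown, and which myosin splice form each one encodes is not annotated in the tables used here.

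**Figure D5:**
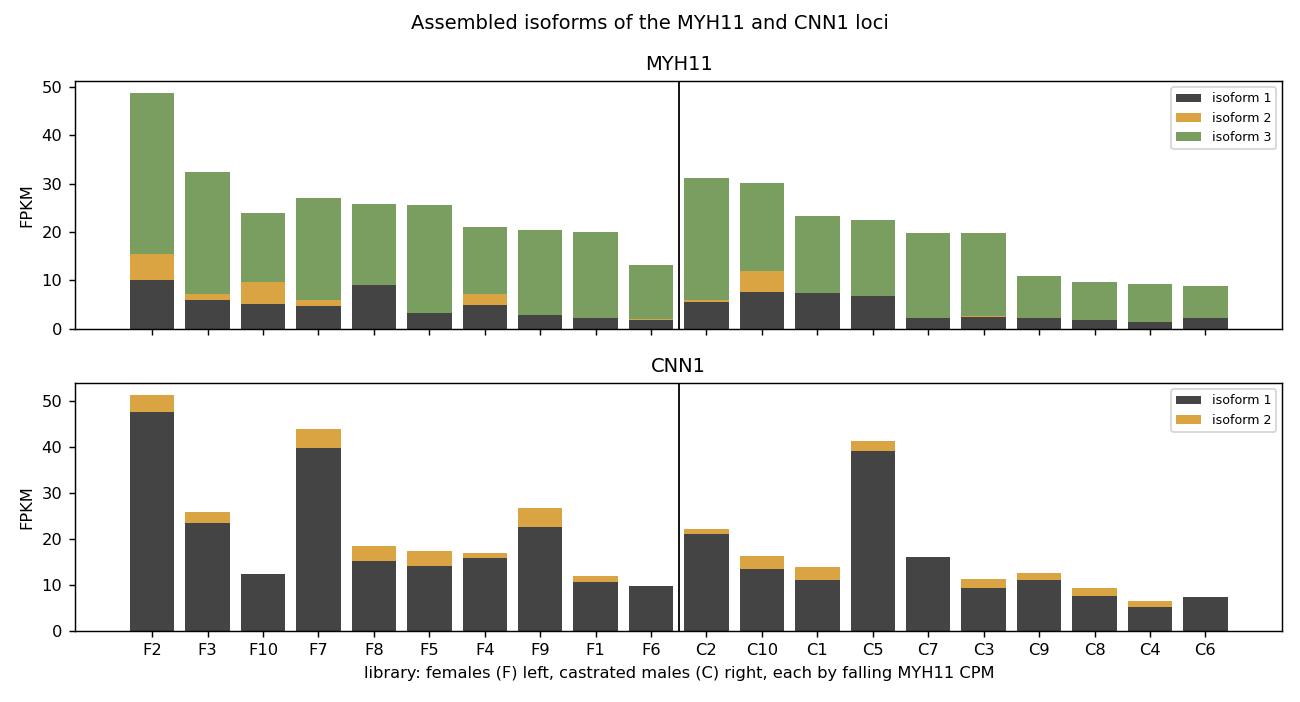
FPKM of the assembled isoforms of the MYH11 and CNN1 loci, stacked by library, with females (F) at left and castrated males (C) at right in order of falling MYH11 CPM. The third MYH11 isoform holds more than 50% of the locus in all 20 libraries, and the first CNN1 isoform holds from 79.1 to 100% of its locus.

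Counts and FPKM of the members followed each other. The r of log2 CPM with log2(FPKM + 0.1) was 0.998 for MYH11, 0.994 for CNN1 and 0.989 for MYLK. CPM per FPKM, which follows the length counted, had a median of 2.63 for MYH11, 1.86 for CNN1 and 1.35 for MYLK. MYH9, another heavy chain, averaged 761 CPM at 116 FPKM, against 58.4 CPM at 22.2 FPKM for MYH11. The loci named MYH11 and MYLK may thus hold only part of each gene, which was not tested. CPM per FPKM was lowest in castrated male 10 for each member, at 2.53 for MYH11, 1.42 for CNN1 and 1.28 for MYLK. It was highest in female 10 for MYH11 (2.94) and MYLK (1.55) and in castrated male 6 for CNN1 (1.90).

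A locus numbered 2 after MYLK, singled out after its values were seen, followed the members. XLOC_008908 carries no identifier and averaged 10.4 ± 2.35 CPM (SD, n = 20). On log2 CPM it ranked first of all loci for likeness to MYH11 (r = 0.918) and first for MYLK (r = 0.856), and its r with CNN1 was 0.595. On log2 FPKM its r was 0.704 with MYH11, 0.337 with MYLK and 0.861 with CNN1, so which member it followed most closely depended on the table. Its neighbour XLOC_008907 (ENSSSCG00000020935), which has no symbol here, had an r of -0.131 with MYLK on log2 CPM. XLOC_008909 had 0 counts in all 20 libraries but 22.4 ± 9.63 FPKM, and 220 of the 376 loci with 0 counts throughout had a mean of at least 1 FPKM, so the tables do not count the same reads there.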

How the data were processed

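Named without roles in the submitters' processing notes are the build Sscrofa10.2, DESeq2, Cufflinks 2.1.1, TopHat2 2.0.8 and Bowtie2 2.1.0.0. The annotation release, strand setting and counting tool were not given in the sources used here, so antisense or overlapping reads cannot be told apart. Per locus and per isoform, the authors deposited FPKM, and per locus they deposited raw counts. Symbols came from a table of Ensembl gene names, which named 9360 of 12707 loci with an identifier. No reference sequence was used, and no coordinates are printed because the RefSeq table is of another build.

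Counts were fitted here with edgeR 4.0.16 (R 4.3.3) on all 21587 loci that passed filterByExpr, with TMM factors, quasi-likelihood tests and Benjamini-Hochberg adjustment at 0.05, for sex and for age with sex in the model. Log2 CPM used a prior count of 2. SE and 95% intervals follow from the quasi-likelihood F. The fits were tested on simulated data. Correlations used 100000 permutations, two-sided. Other tools were matplotlib 3.10.9, scipy 1.17.1, pandas 2.3.3, numpy 2.4.6 and Python 3.11.15. Alternatives were DESeq2 1.42.0, limma 3.58.1 on log2(FPKM + 0.1) and log2(FPKM + 1), for loci of FPKM 0.5 or more in 10 libraries, other scalings, no filter, other covariates and libraries left out. Intervals give the uncertainty of each estimate, taken from the spread between these animals, and each animal gave 1 library.

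The members, the lists and the rule for named genes were chosen with earlier results of these data known. The rule took the members, the 6 loci with a symbol of highest r with each, up to 4 genes per list by mean FPKM, and the gene families whole. List genes without a locus by symbol were not analysed here. Some genes of the lists are not reported here.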

Additional observations from a re-analysis of the deposited data

Results flagged for a closer look

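MYH11 in female 2, at 130.3 CPM, lay far above the other 9 females, of which the next was female 3 at 85.2 CPM. CNN1 in castrated male 5, at 76.5 CPM, lay far above the other 9 castrated males, of which the next was castrated male 2 at 41.3 CPM. The rule compared the gap with the range on CPM without logs. For normal values chance marks about 1 in 20 groups of this size, and 6 groups, which are not independent, were looked at. On log2 CPM, MYH11 was 7.03 in female 2, against 6.41 in female 3 and 5.09 in female 6, the lowest female. CNN1 was 6.26 in castrated male 5, against 5.37 in castrated male 2 and 3.57 in castrated male 4, the lowest castrated male. The rule was not applied on that scale. Age slopes and sex differences without these libraries stand beside the results above.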

How the results depend on the processing

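Each member was refitted under 29 alternatives for sex and for age, among which leaving out castrated male 1 counts under 2 headings. All sex differences kept their sign, and no member passed under any alternative (lowest adjusted p = 0.953 for sex and 0.551 for age). Leaving out 1 library at a time, sex differences ran from 0.34 to 0.61 for MYH11, from 0.40 to 0.91 for CNN1 and from 0.069 to 0.20 for MYLK, and age slopes from -0.60 to -0.23 for MYH11, from -0.74 to 0.23 for CNN1 and from -0.41 to -0.30 for MYLK. The CNN1 slope of 0.23, without female 2, was the sole change of sign. For sex, 0 loci passed in edgeR (935 at an unadjusted p under 0.05), 6 in DESeq2, 12 and 11 with limma on log2(FPKM + 0.1) and log2(FPKM + 1), 18 without female 10 and castrated male 10, and 0 to 13 with 1 library left out (13 without female 10, 7 without castrated male 10). For age, 0 passed in edgeR (1189 at an unadjusted p under 0.05), 5 in DESeq2, 1 with limma at either pseudocount, and 0 to 1 with 1 library left out. Each correlation was recomputed in 9 ways, and the side of the threshold changed in 1 case. Within females, a split added after the data were seen, MYH11 and MYLK had r = 0.655 (adjusted permutation p = 0.0505). No paired analysis was possible because the labels give no numbers shared between the sexes. With 10 animals a group, the 95% interval of the CNN1 sex difference spans -0.089 to 1.30, so differences of that size were not resolved. The causes of these changes were not tested.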
